A study of Mus musculus with 12 samples.

Results

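The drug-metabolising enzymes described here are 34 genes chosen by symbol: the main cytochrome P450s of families 1 to 3 in mouse liver, the P450 reductase, flavin monooxygenases, carboxylesterases, UDP-glucuronosyltransferases, sulfotransferases and glutathione S-transferases. All 34 symbols were matched to Ensembl identifiers among the 55414 in the count table. Of the members, 26 encode phase 1 and 8 encode phase 2 enzymes. RNA was sequenced with a stranded kit from wild-type C57BL/6J livers and lungs, collected 6 h after sham surgery or CLP (cecal ligation and puncture, in which the cecum is tied off and pierced so that gut bacteria leak into the abdomen, a standard model of sepsis). The groups were liver sham, liver CLP, lung sham and lung CLP, with 3 libraries each. All groups shared genotype, strain, diet and housing, no drug or transgene is named in the labels, and the mice's age and sex were not given in the sources used here. No label states that the libraries of a group come from different mice, so p-values measure the spread between these libraries, which may be technical.

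Phase 1 enzymes oxidise, reduce or hydrolyse lipophilic drugs, toxins, steroids and fatty acids, and phase 2 enzymes join the product, or the parent compound, to glucuronic acid, sulfate or glutathione so that it can be excreted. Most P450s sit in the endoplasmic reticulum, hold a haem group and take their electrons from NADPH through the P450 reductase, the product of Por. Hepatocytes carry the broadest set, many of them enriched around the central vein, whereas in the lung the club cells of the airways are rich in Cyp2f2, and acute inflammation is known to lower many hepatic P450 transcripts.

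Levels are given in CPM, a gene's counts scaled to a common library size and corrected for composition with trimmed mean of M-values (TMM) factors. Differences are log2 CLP over sham with the standard error (SE), from edgeR's quasi-likelihood test fitted to all genes of an organ, and the p-values are adjusted over all genes tested by the Benjamini-Hochberg method, with a threshold of 0.05. Libraries held 10559895 to 15854117 counts, and 3 counts were worth 0.179 to 0.308 CPM after the composition correction. The organs matched their labels: the 15 hepatocyte markers summed to 118450 to 182340 CPM in liver and 448 to 621 CPM in lung, and the 11 club cell markers to 16193 to 23253 CPM in lung. A log2 difference of 0 is close to the median gene, which lay at -0.01 in liver and -0.03 in lung.

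In sham liver the ranking of members, on a scale divided by transcript length (TPM, computed here from the counts, which allows genes to be compared), was led by Cyp2e1 at 7103 ± 652 (SD, n = 3). Cyp2e1 oxidises ethanol, acetone and paracetamol. Next came Cyp3a11, a broad-range drug oxidase, at 2218 ± 755, Cyp2f2 at 1689 ± 73.7, Gstm1, a glutathione transferase, at 1598 ± 506, and Cyp2d26 at 927 ± 86.6. The lowest Cyp2e1 library lay above the highest Cyp3a11 library, while the ranges of Cyp3a11, Cyp2f2 and Gstm1 overlapped in turn, and all Gstm1 libraries lay above all Cyp2d26 libraries. At the bottom of the liver order were Cyp2u1, a fatty acid hydroxylase, at 6.28 ± 2.00, and Cyp2b9 at 0.147 ± 0.255, which had 5 counts in the sham and 9 in the CLP livers and was not tested.

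In sham lung Cyp2f2, which activates naphthalene, led the same length-scaled order at 4817 ± 517. It was followed by Ces1d, a carboxylesterase, at 1146 ± 104, Gstm1 at 881 ± 45.0, Cyp2b10 at 878 ± 140 and Sult1a1, a phenol sulfotransferase, at 477 ± 57.1. On CPM scaled to library totals alone, without length scaling, 4 members had a higher level in sham lung than in sham liver. These were Cyp2b10 at 21.2 times, Fmo1 at 7.48 times, Ces1d at 3.56 times and Cyp2f2 at 2.27 times the liver level. The other 30 members had lower means in lung. Over the 15 hepatocyte markers, the median of the lung level as a share of the liver level was 0.0174% to 0.115% by lung library, and Cyp3a11 stood at 0.0162% to 0.0917% of its liver level in sham lung, above that share in 0 of 3 libraries. Cyp2e1 in sham lung was at 0.292% to 0.45% of its liver level, above the share in 3 of 3 libraries.

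**Figure D1:**
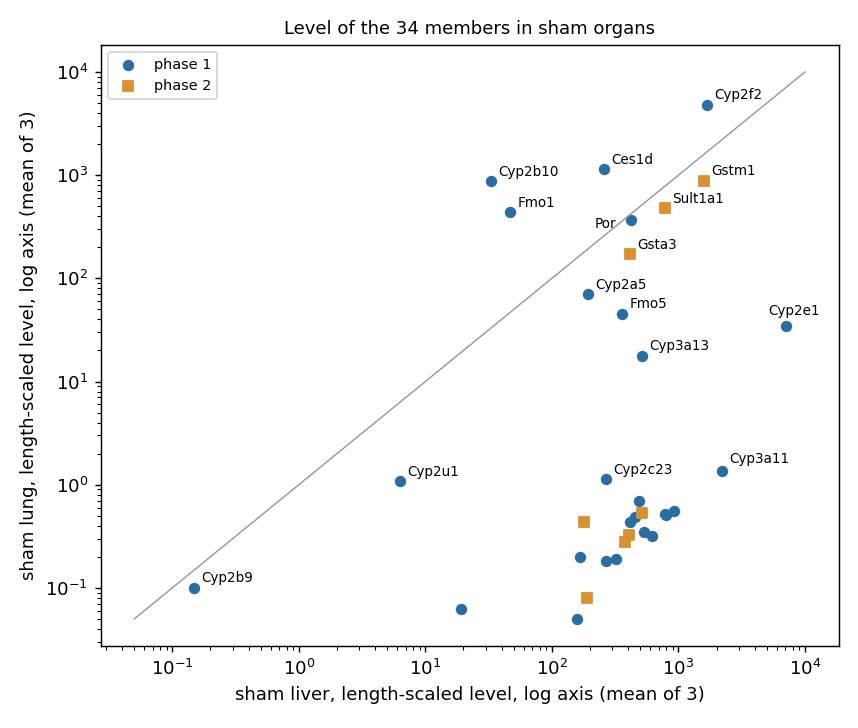
Length-scaled level of each of the 34 members in sham liver (x axis) and sham lung (y axis), TPM on log axes, each point the mean of 3 libraries and values under 0.05 drawn at 0.05. Cyp2e1 at 7103 lies farthest right, and Cyp2f2 at 4817 lies highest, with Cyp2b10, Fmo1, Ces1d and Cyp2f2 above the line of equal levels.

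After CLP, 5 phase 1 transcripts fell in liver and none of the phase 2 transcripts passed the test. The falls were in Cyp2u1, Cyp3a13, Fmo5, Cyp2e1 and Cyp2d26, and they ranged from 9.82-fold to 1.39-fold. Of the 33 members tested, 5 were lower, 0 were higher and 28 did not pass, against 42.3% of all 12392 genes tested that were called, 21.0% lower and 21.4% higher, so the share of members lower, 15.2%, did not exceed the share over all genes. At least 2-fold lower were 3 members and at least 2-fold higher 0, against 9.84% and 8.88% of all genes. At an unadjusted p under 0.05 2 members were higher, Ces1d and Cyp2c70, and DESeq2 and limma-voom each called both. In whole organs fewer cells of a type and less RNA per cell cannot be told apart.

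Cyp2u1 (ENSMUSG00000027983) had 14.7, 8.89 and 11.1 CPM in the 3 sham livers and 1.31, 0.802 and 1.44 CPM in the 3 CLP livers. Every CLP library was far below every sham library, from 508 counts summed over the sham to 41 over the CLP libraries. The log2 difference was -3.30 ± 0.28 (SE), with an edgeR adjusted p of 9.69e-05. In the annotation used here, 10.5% of its exon bases lie opposite the antisense RNA 4930534D22Rik, and the strand setting of the counting was not given in the sources used here.

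Cyp3a13 (ENSMUSG00000029727), a member of the steroid- and drug-oxidising 3A subfamily, had 610, 570 and 452 CPM in sham and 145, 135 and 198 CPM in CLP liver. The groups were widely separated, the highest CLP library lying below the lowest sham library. It fell 3.41-fold, a log2 difference of -1.77 ± 0.18, with an edgeR adjusted p of 0.000221. Fmo5 (ENSMUSG00000028088), a flavin monooxygenase that inserts oxygen next to ketones, had 687, 806 and 680 CPM in sham and 296, 234 and 369 CPM in CLP liver. Again all CLP livers were below all sham livers, with a log2 difference of -1.27 ± 0.18 and an edgeR adjusted p of 0.000847.

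Cyp2e1 (ENSMUSG00000025479) had 4545, 6053 and 5838 CPM in sham and 2943, 2519 and 3969 CPM in CLP liver. The groups did not overlap, and the log2 difference was -0.80 ± 0.20, a 1.74-fold fall, with an edgeR adjusted p of 0.0113. Cyp2d26 (ENSMUSG00000022445), of the family that in humans oxidises many basic drugs, had 509, 605 and 663 CPM in sham and 478, 364 and 432 CPM in CLP liver. The lowest sham library lay only just above the highest CLP library. Its log2 difference was -0.48 ± 0.15, with an edgeR adjusted p of 0.0324. Leaving out a CLP library ended this call for replicate 2 and replicate 3, with an edgeR adjusted p of 0.0823 and 0.0753, and leaving out sham replicate 2 or 3 ended it at 0.0811 and 0.111.

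Because Cyp3a13 fell in both organs, Cyp2e1 had the largest fall in CPM in liver and Por was the member that rose in lung, the bases before their annotated starts are shown. Fmo5 fell in both organs too, but only 35 bases remained once those inside its exons were left out, so they are not shown. The bases before Cyp2d26, Sult1a1 and Gstm1 were extracted as well and are not shown. The sequences come from RefSeq on GRCm38.p6, not the mm39 build of the counts, and bases inside the genes' own exons in the GENCODE M21 annotation were left out. They run 5′ to 3′ on the gene's strand, and capitals mark the motif matches described after them.
Cyp3a13, chr5:137921620-137921869, minus strand: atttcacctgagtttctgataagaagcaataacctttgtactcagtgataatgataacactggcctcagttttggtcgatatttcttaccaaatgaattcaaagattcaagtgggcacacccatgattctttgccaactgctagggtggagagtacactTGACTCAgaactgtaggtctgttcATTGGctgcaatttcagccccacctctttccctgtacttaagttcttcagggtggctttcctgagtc
Cyp2e1, chr7:140763569-140763738, plus strand: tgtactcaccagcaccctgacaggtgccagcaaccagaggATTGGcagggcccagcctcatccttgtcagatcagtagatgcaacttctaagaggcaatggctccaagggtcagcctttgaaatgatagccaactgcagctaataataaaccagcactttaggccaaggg
Por, chr5:135688895-135689035, plus strand: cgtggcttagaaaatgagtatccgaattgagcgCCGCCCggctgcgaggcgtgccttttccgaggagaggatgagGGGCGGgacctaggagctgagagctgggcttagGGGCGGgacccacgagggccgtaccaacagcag
Windows for 29 of the 34 members were matched. Searched on both strands were TATAAA (core promoter box), GGGCGG (GC box), AGGTCA (nuclear receptor half-site), TTGCNNAA (C/EBP), TGA and TCA 1 base apart (AP-1) and TTCNNNGAA (STAT), besides the CCAAT box named by its letters. The C/EBP, AP-1 and STAT motifs were found in 9.55%, 6.87% and 7.18% of 27025 windows of 250 bases before all annotated starts. The Cyp3a13 bases held an AP-1 match at 91 to 85 and a CCAAT box on the reverse strand at 67 to 63 bases before the start. CCAAT was present in 34.5% of all windows, and the Cyp2e1 bases held it on the reverse strand at 210 to 206. The Por bases held 3 GC boxes, at 217 to 212, 175 to 170 and 142 to 137 bases before the start, a motif present in 32.9% of all windows. TATAAA was present in 13.0% and AGGTCA in 13.8% of all windows and in none of these 3 stretches. Those of Cyp2e1, 170 bases, and Por, 141 bases, are shorter than the 250 bases of the other windows, so their matches cannot be set against these shares. With the exon bases included, the full 250 bases of Cyp2e1 held 1 TATAAA and 2 CCAAT boxes. The full 250 bases of Por held 4 GC boxes. Each match is a run of letters and not a measured binding site.

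The other 16 P450s tested did not pass, although the differences of Cyp2b10 and Cyp2c70 were larger in size than that of Cyp2e1. Cyp3a11 had 5209, 3582 and 3122 CPM in sham and 2868, 3031 and 3840 CPM in CLP liver. The ranges overlapped, and the log2 difference of -0.29 ± 0.21 did not pass. Cyp2f2 had 1189, 1237 and 1222 CPM in sham and 1199, 931 and 1107 CPM in CLP liver, with overlapping ranges and a log2 difference of -0.17 ± 0.13. Cyp1a2, which oxidises caffeine and aromatic amines, differed by -0.07 ± 0.21, and Cyp2c29, a drug and fatty acid oxidase, by 0.04 ± 0.14. Cyp2b10, the classical target of the receptor CAR, had 33.6, 26.3 and 13.6 CPM in sham and 4.92, 18.0 and 11.3 CPM in CLP liver. Its point estimate was the lowest among the members that did not pass, -1.10 ± 0.51, but its ranges overlapped and the edgeR adjusted p was 0.128.

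Cyp2d9, Cyp2d10, Cyp3a25 and Por also had every CLP library below every sham library, without passing. Their log2 differences were -0.50 ± 0.23, -0.24 ± 0.12, -0.42 ± 0.18 and -0.56 ± 0.27. With the 5 called members these made 9 of the 33 members whose CLP livers all lay below the sham livers, all of them phase 1, against 27.6% of all genes, close to the share of 9 in 33. Scaling moved these counts: with library totals alone, which put the median gene at -0.21, 15 members were lower, 12 of phase 1 and 3 of phase 2, and with upper-quartile scaling, which put it at -0.11, 8 phase 1 members were.

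The carboxylesterase Ces1d was the single member with all CLP livers above all sham livers. It had 198, 257 and 196 CPM in sham and 275, 302 and 271 CPM in CLP liver, and 28.1% of all genes had that pattern. The difference, 0.38 ± 0.14, was just outside the threshold, with an edgeR adjusted p of 0.0534. Cyp2c70, which makes the muricholic acids of mouse bile, had 270, 432 and 344 CPM in sham and 1351, 413 and 704 CPM in CLP liver. The CLP libraries were widely spread and overlapped with the sham libraries, and the difference of 1.24 ± 0.42 had an edgeR adjusted p of 0.0535. Ces2a, the other esterase, differed by 0.05 ± 0.13.

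**Figure D2:**
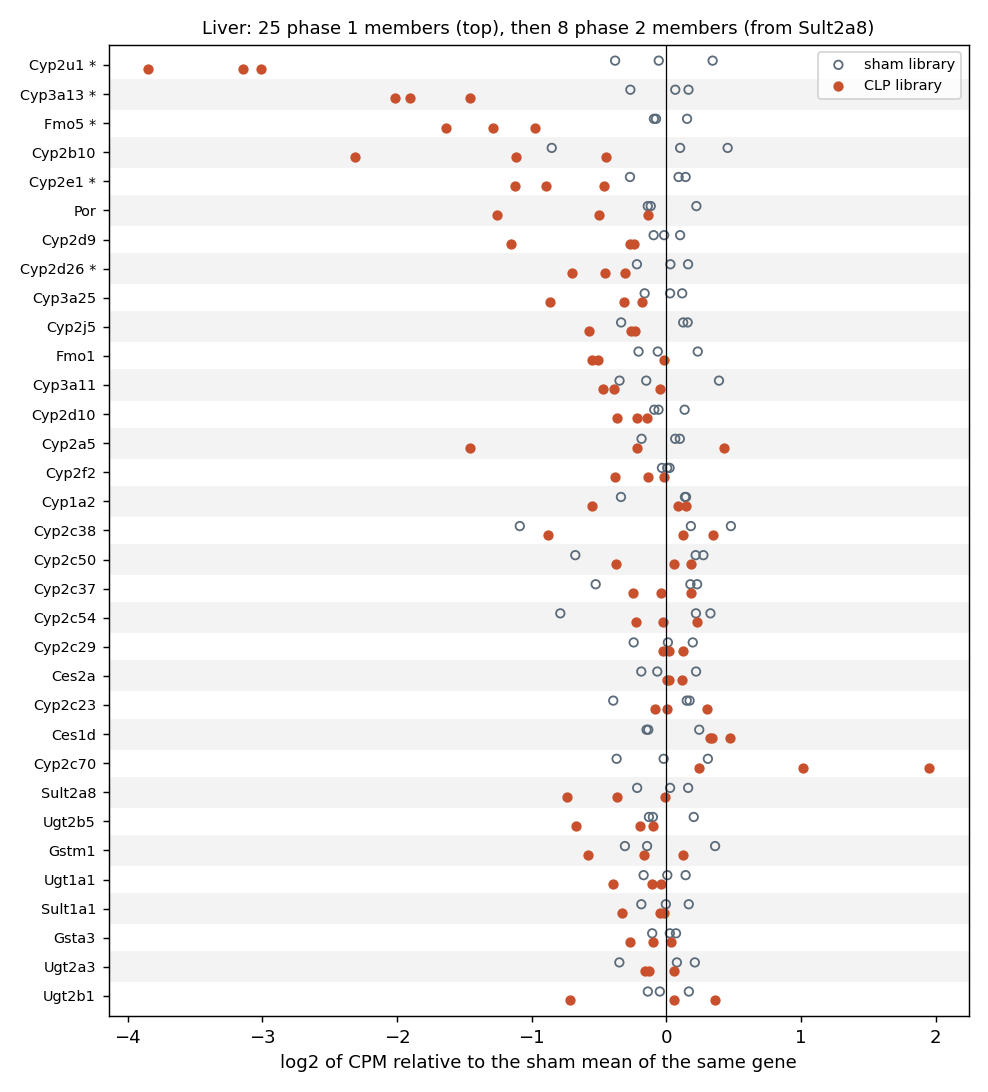
Log2 of each liver library's CPM relative to the sham mean of the same gene (x axis) for the 33 members tested, 3 open sham points and 3 filled CLP points a gene, phase 1 above phase 2 and ordered by difference; an asterisk marks an edgeR adjusted p below 0.05. The marked members are Cyp2u1, Cyp3a13, Fmo5, Cyp2e1 and Cyp2d26, and no phase 2 gene is marked.

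All 8 phase 2 members had negative log2 differences in liver, from -0.34 to -0.03, and 0 of 8 passed. Of 25 phase 1 members 5 passed, all lower, and that share did not exceed the 21.0% of all genes tested that were lower. The phase 2 median was -0.15 and the phase 1 median -0.24, against -0.01 over all genes. With library totals alone these medians were -0.34 and -0.44, against -0.21 over all genes. That the phases differ was not tested, and fewer phase 2 genes were listed. Gstm1 had 1065, 750 and 669 CPM in sham and 554, 737 and 905 CPM in CLP liver, a wide overlap. Gsta3, another glutathione transferase, had 653, 674 and 596 CPM in sham and 597, 532 and 657 CPM in CLP liver. Sult1a1 differed by -0.13 ± 0.14, and Sult2a8, a liver sulfotransferase for bile acids, by -0.34 ± 0.19. Among the glucuronosyltransferases, Ugt2b5 differed by -0.30 ± 0.17, Ugt1a1, the bilirubin-conjugating enzyme, by -0.17 ± 0.13, Ugt2a3 by -0.07 ± 0.15 and Ugt2b1 by -0.03 ± 0.25. Ugt1a1 shares 58.9% of its exon bases with other genes of the Ugt1a cluster, so its counts are uncertain.

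Summed over the 34 members, the transcripts made up 2.18% to 2.41% of all counts in sham livers and 1.36% to 1.75% in CLP livers. In CPM the sums were 20708 to 22172 in sham and 14544 to 18996 in CLP, without overlap. Cyp2e1 made up 21.5% to 28.2% of the sum in sham and 17.3% to 20.9% in CLP livers. Without it the ranges of all other members were 14870 to 16612 and 12025 to 15027 CPM, which overlapped, while phase 1 without it was at 11713 to 13154 and 9408 to 11620 CPM, just apart. The phase 1 sum was 17550 to 18803 CPM in sham and 11927 to 15589 CPM in CLP livers, and the phase 2 sum 3157 to 3458 and 2617 to 3407 CPM, which overlapped.

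**Figure D3:**
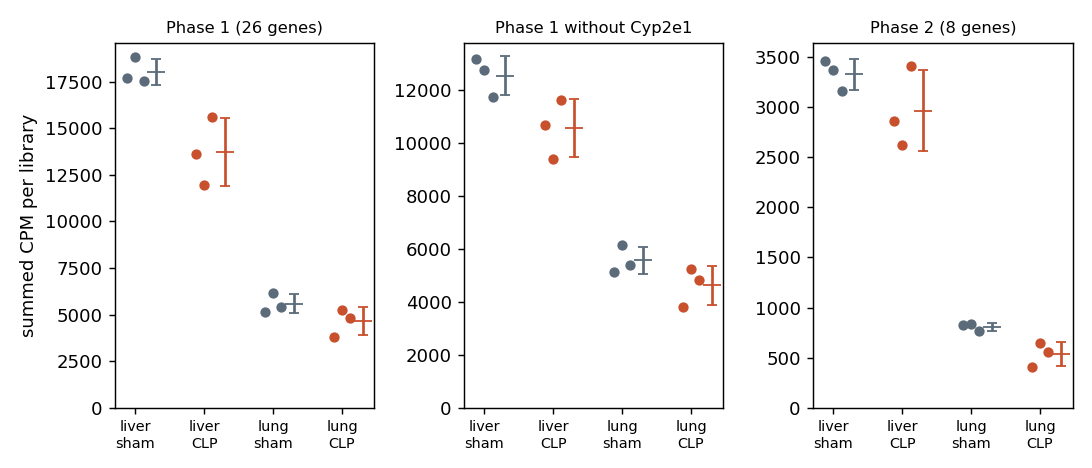
Summed CPM of the phase 1 and phase 2 members in each library by group, with phase 1 without Cyp2e1 in the middle, 3 points per group and bars for mean ± SD. The phase 1 sums of CLP livers, 11927 to 15589, lie below those of sham livers, 17550 to 18803, and the phase 2 sums overlap in liver.

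Marker genes of the cell types in liver moved at the same time. The summed hepatocyte markers were 118450 to 148070 CPM in sham and 158850 to 182340 CPM in CLP livers, with 2 of 15 lower and 4 higher, 8 with a negative log2 difference and a list median of -0.03. Of 9 pericentral markers, 4 were lower, among them Tbx3, Axin2 and Lgr5, and 0 were higher, while 7 had a negative log2 difference. The pericentral sums overlapped at 1722 to 2553 and 1801 to 3213 CPM. Glul had the most counts of this list in every liver library and did not pass. Its counts were 10647, 15245 and 18111 in sham and 27446, 10495 and 21538 in CLP livers. Of 9 periportal markers, 5 were lower and 1 higher, with sums of 11077 to 12556 and 7821 to 8967 CPM. All 11 neutrophil markers tested were higher, their sum moving from 1014 to 2584 CPM in sham to 6162 to 7062 CPM in CLP livers. Lcn2, which hepatocytes also make in the acute phase, made up 98.2% to 99.2% and 96.4% to 97.1% of these sums. Without it the sums were 17.8 to 20.1 CPM in sham and 177 to 254 CPM in CLP livers, and Camp and Ltf were at 0 in every sham liver. The part of these markers in the enzyme results was not tested.

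The genes around the members were read from wider lists. In liver, of 38 other P450s of families 1 to 3, 16 were tested, 1 was lower, Cyp2d22 (-0.48 ± 0.12), and 1 was higher, Cyp2j9 (0.48 ± 0.15). Of 34 other phase 1 genes tested, 3 were lower and 3 higher. Fmo4 went from 7.56 to 8.26 CPM in sham to 0.924 to 1.38 CPM in CLP liver, -2.81 ± 0.21, and Fmo2 fell by 1.23 on the log2 scale, so that members of the flavin monooxygenase family beyond Fmo5 were among the falls. Xdh, which makes uric acid and was higher in all CLP livers, went from 226 to 313 CPM to 781 to 921 CPM, 1.64 ± 0.15, and Ces1f was higher by 0.36 ± 0.11. Of 43 other phase 2 genes tested, 5 were lower and 2 higher: Ugt1a6a, whose exons are partly shared with the Ugt1a cluster, differed by -2.75 ± 0.34 and the arsenic methyltransferase As3mt by -0.88 ± 0.18, while Ugt2b38 differed by 2.10 ± 0.57 and the oestrogen sulfotransferase Sult1e1 by 1.58 ± 0.44. These shares, like those of the other phase 1 genes, were below the 21.0% lower and 21.4% higher of all genes.

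Among 17 electron donors and enzymes of haem synthesis and breakdown, 3 were lower and 2 higher in liver, 17.6% and 11.8%, also below the shares over all genes. Cpox, which acts late in haem synthesis, went from 112 to 210 CPM in sham to 27.4 to 39.7 CPM in CLP liver (-2.44 ± 0.27), and Uros, an earlier step, differed by -0.85 ± 0.12. Hmox1, which opens the haem ring, went from 22.6 to 39.4 CPM to 147 to 224 CPM, with an edgeR adjusted p of 0.000242, and Blvra, which reduces biliverdin, differed by 0.48 ± 0.14. The CLP and sham ranges of Cpox and Hmox1 were fully apart. Of 10 genes supplying cosubstrates, 3 were lower and 2 higher, against 21.0% and 21.4% of all genes. Glutathione reductase, Gsr, was higher by 1.25 ± 0.11 and Gclc, the catalytic subunit for glutathione synthesis, by 0.96 ± 0.24, while its modifier subunit Gclm differed by -0.48 ± 0.13 and the sulfate carrier Slc26a1 by -1.69 ± 0.27.

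Receptors and regulators of these enzymes were called often. Of 23 tested in liver, 13 were lower and 3 higher, a share lower of 56.5% against 21.0% of all genes, with a median log2 difference of -0.77. Nr1i3, the receptor CAR that senses phenobarbital-like compounds, went from 85.7 to 173 CPM in sham to 7.22 to 15.2 CPM in CLP liver. All CLP livers were far below all sham livers, with a log2 difference of -3.56 ± 0.39 and an edgeR adjusted p of 0.000672. In the annotation used here 74.9% of the Nr1i3 exon bases lie opposite the coding gene Tomm40l, so without a known strand setting its counts are uncertain. The clock-controlled factor Hlf, known to act on the Nr1i3 gene, went from 28.5 to 40.8 CPM to 7.30 to 10.0 CPM (-1.92 ± 0.18). The inflammation-responsive factor Cebpb was higher, from 43.6 to 53.6 CPM to 154 to 166 CPM (1.76 ± 0.11), with 20.7% of its exon bases opposite Tmem189, as was Hnf4a, from 642 to 795 CPM to 1145 to 1428 CPM (0.78 ± 0.14). Nr1i2, the drug receptor PXR, was named after its values were seen as the partner of Nr1i3, and was at -0.77 ± 0.12.

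In lung, 5 members fell and 1 rose. Both flavin monooxygenases, Sult1a1, Cyp3a13 and Gstm1 were lower after CLP, and Por was higher. Of 34 members, 14 passed the filter on low counts, and of these 5 were lower, 1 higher and 8 did not pass, against 48.9% of all 15441 genes tested that were called, 24.9% lower and 23.9% higher. At least 2-fold lower were 4 members and at least 2-fold higher 0, against 5.91% and 9.42% of all genes. The other 20 had group means of at most 0.711 CPM and were not tested. All CLP libraries lay below all sham libraries in 6 of the 14 and above in 1, against 31.1% and 28.6% of all genes.

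Fmo1 (ENSMUSG00000040181), an oxidase of nitrogen- and sulfur-containing compounds, had 822, 796 and 802 CPM in sham and 178, 125 and 292 CPM in CLP lung. The sham libraries were tightly grouped, and all CLP libraries were well below them. It fell 4.07-fold, a log2 difference of -2.03 ± 0.28, with an edgeR adjusted p of 0.0012. Fmo5 had 74.5, 78.1 and 73.0 CPM in sham and 21.0, 21.3 and 27.9 CPM in CLP lung. The spread within each group was small beside the gap, and the log2 difference was -1.69 ± 0.12, with an edgeR adjusted p of 5.48e-05. Cyp3a13 had 16.9, 16.4 and 12.9 CPM in sham and 6.07, 5.02 and 9.83 CPM in CLP lung, so all CLP lungs were lower. It differed by -1.15 ± 0.24, with an edgeR adjusted p of 0.00541. Its sham lung level was 2.73% of that in liver on CPM scaled to library totals alone.

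The phase 2 gene Sult1a1 (ENSMUSG00000030711) had 230, 218 and 182 CPM in sham and 85.2, 82.8 and 112 CPM in CLP lung. The groups were apart, with a log2 difference of -1.17 ± 0.14 and an edgeR adjusted p of 0.00042. Gstm1 (ENSMUSG00000058135) had 396, 375 and 364 CPM in sham and 178, 280 and 222 CPM in CLP lung, again without overlap. It differed by -0.74 ± 0.15, with an edgeR adjusted p of 0.00491, and 11.7% of its sequence words of 75 bases occur in another gene. Gsta3 had 197, 238 and 217 CPM in sham and 141, 286 and 217 CPM in CLP lung, a wider spread after CLP around means of 215 and 218 CPM (-0.02 ± 0.23).

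Por (ENSMUSG00000005514) had 400, 470 and 414 CPM in sham and 764, 794 and 774 CPM in CLP lung. All CLP lungs were above all sham lungs, 1.82-fold on the fitted scale, a log2 difference of 0.86 ± 0.10 with an edgeR adjusted p of 0.000283. No P450 member passed upward beside it. Cyp2f2 had 2502, 3202 and 2845 CPM in sham and 1858, 2891 and 2452 CPM in CLP lung, and the overlapping ranges gave -0.25 ± 0.17 and an edgeR adjusted p of 0.275. The antisense RNA Gm15883 lies opposite 13.5% of the Cyp2f2 exon bases, which leaves the same doubt about strand as for Cyp2u1. Cyp2b10 had 546, 633 and 447 CPM in sham and 413, 487 and 477 CPM in CLP lung (-0.24 ± 0.14). Neither reached the threshold, and both had overlapping groups. Ces1d had 730, 891 and 759 CPM in sham and 543, 677 and 763 CPM in CLP lung (-0.26 ± 0.14). Cyp2u1 was low in all lungs, at 1.38, 1.87 and 1.72 CPM in sham and 0.933, 1.30 and 1.27 CPM in CLP, and Cyp2e1, with lung means of 21.6 ± 4.57 CPM for sham and 21.5 ± 7.82 CPM for CLP (SD, n = 3), differed by -0.01 ± 0.27. Cyp3a11 differed by 0.19 ± 0.56.

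Cyp2a5, which oxidises coumarin and nicotine, turned on 1 library. It had 29.6, 56.8 and 40.5 CPM in sham lung and 9.95, 233 and 13.9 CPM in CLP lung. CLP replicates 1 and 3 were below every sham lung and CLP replicate 2 was above them, and the difference over all 3 was 1.02 ± 1.35. Without CLP replicate 2 it was -1.80, with an edgeR adjusted p of 0.00621. Secretory genes of the airways stood apart in the same library: in CLP replicates 1, 2 and 3 Bpifa1 was at 6.07, 1181 and 0.728 CPM, Muc5b at 146, 533 and 25.2 CPM and Scgb3a1 at 50.9, 488 and 9.56 CPM. Their part in the Cyp2a5 values was not tested. In liver, by comparison, Cyp2a5 had 151, 124 and 148 CPM in sham and 51.3, 190 and 121 CPM in CLP, also with the highest value in CLP replicate 2. Of the Cyp2a5 sequence words of 75 bases, 22.3% occur in another gene, most of them in Cyp2a4, so its counts may be split.

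**Figure D4:**
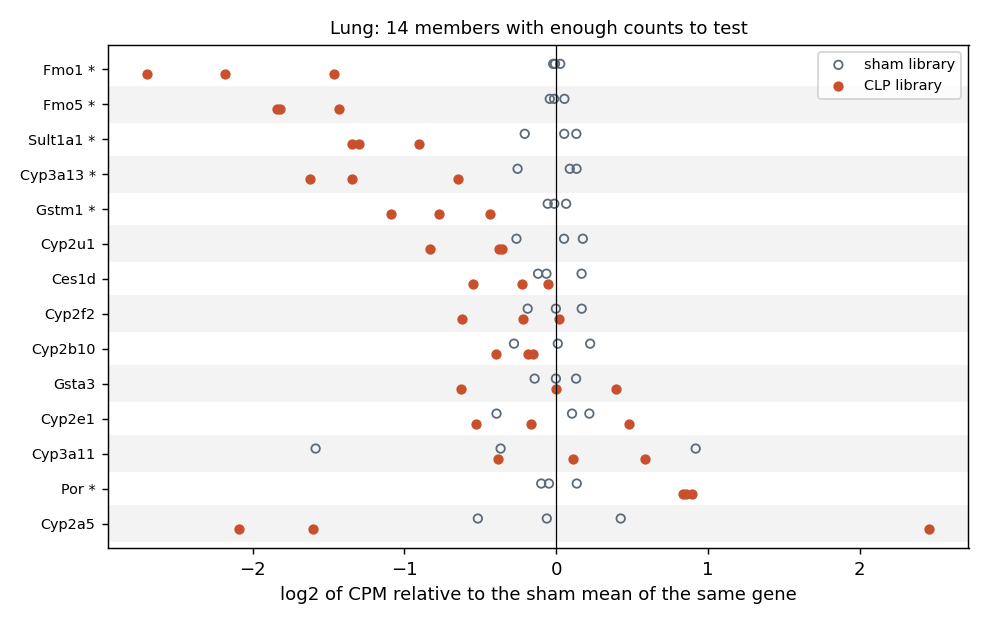
Log2 of each lung library's CPM relative to the sham mean of the same gene (x axis) for the 14 members tested, 3 open sham points and 3 filled CLP points a gene, ordered by difference, with an asterisk for an edgeR adjusted p below 0.05. Fmo1, Fmo5, Cyp3a13, Sult1a1 and Gstm1 are lower and Por is higher, and the Cyp2a5 CLP points are the most widely spread, from 9.95 to 233 CPM.

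Marker lists in lung moved unequally. None of the 11 club cell markers passed in either direction, and their sums overlapped at 18281 to 23253 CPM in sham and 16193 to 21729 CPM in CLP lung. Scgb1a1 made up 95.6% to 95.7% and 84.0% to 97.1% of these sums, and the other 10 markers summed to 811 to 1031 CPM in sham and to 805, 3334 and 629 CPM in CLP lungs 1, 2 and 3. Of 10 markers of alveolar type 1 cells, 8 were lower, with sums of 8592 to 9102 and 4878 to 6713 CPM, and of 10 endothelial markers 6 were lower and 1 higher, with sums of 6601 to 7281 and 4538 to 4755 CPM. Alveolar type 2 markers had 2 lower and 1 higher of 10, and ciliated cell markers 2 lower of 10. All 12 neutrophil markers were higher, from 1211 to 1344 CPM to 9990 to 15487 CPM, and without Lcn2 from 1024 to 1143 CPM to 7347 to 10637 CPM. Whether these shifts carry the falls of Fmo1, Fmo5, Sult1a1, Cyp3a13 and Gstm1 was not tested. The summed members were 0.616% to 0.723% of counts in sham and 0.399% to 0.575% in CLP lung, and Cyp2f2 made up 41.8% to 46.0% and 44.0% to 48.8% of the sum.

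The wider lists in lung are set against the 24.9% of all genes that were lower and the 23.9% that were higher. Of 8 other P450s tested 4 were lower and 1 higher, of 31 other phase 1 genes 12 lower and 2 higher, and of 33 other phase 2 genes 12 lower and 3 higher. Of 17 genes of electron supply and haem, 7 were lower and 2 higher, with Hmox1 at 3.19 ± 0.36. Of 9 cosubstrate genes, 2 were lower and 3 higher, among them Gsr (2.17 ± 0.18) and Gclc (1.94 ± 0.16), which rose in liver as well. Of 19 receptors and regulators, 9 were lower and 3 higher, with Hlf at -2.04 ± 0.36 and Cebpb at 1.96 ± 0.24.

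To ask which members responded differently in the organs, the difference between the lung and the liver response was tested in 1 model over all 12 libraries. It passed for 5 of 33 members tested, against 17.7% of all 16111 genes. The 5 were Cyp2u1, Sult1a1, Fmo1, Por and Ces1d, of which 2 had a higher and 3 a lower response in lung than in liver, against 8.89% and 8.84% of all genes. Another 19 of the 33 had too few counts in lung to be tested there, where such a difference has no reliable lung value behind it. The liver and lung comparisons share no libraries, but the labels do not say whether they share mice.

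The CLP livers had Cyp2u1 at 0.802 to 1.44 CPM and the sham lungs at 1.38 to 1.87 CPM, each scaled within its organ. The lung response minus the liver response was 2.76 ± 0.41 on the log2 scale, with an edgeR adjusted p of 0.000645. Sult1a1 differed by -1.07 ± 0.21 (edgeR adjusted p = 0.00405), as it fell in lung but was at -0.13 in liver. Fmo1 behaved in the same direction, at -1.72 ± 0.35 (edgeR adjusted p = 0.00537), with 90.7, 100 and 123 CPM in sham and 73.8, 71.5 and 103 CPM in CLP liver. Por rose in lung while its liver values were 553, 710 and 561 CPM in sham and 255, 552 and 429 CPM in CLP, and its responses differed by 1.39 ± 0.31 (edgeR adjusted p = 0.00755). Cyp3a13 and Fmo5, lower in both organs, differed between them by 0.59 ± 0.31 and -0.44 ± 0.23, which did not pass (edgeR adjusted p = 0.224 and 0.222) and does not show that the responses were alike.

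**Figure D5:**
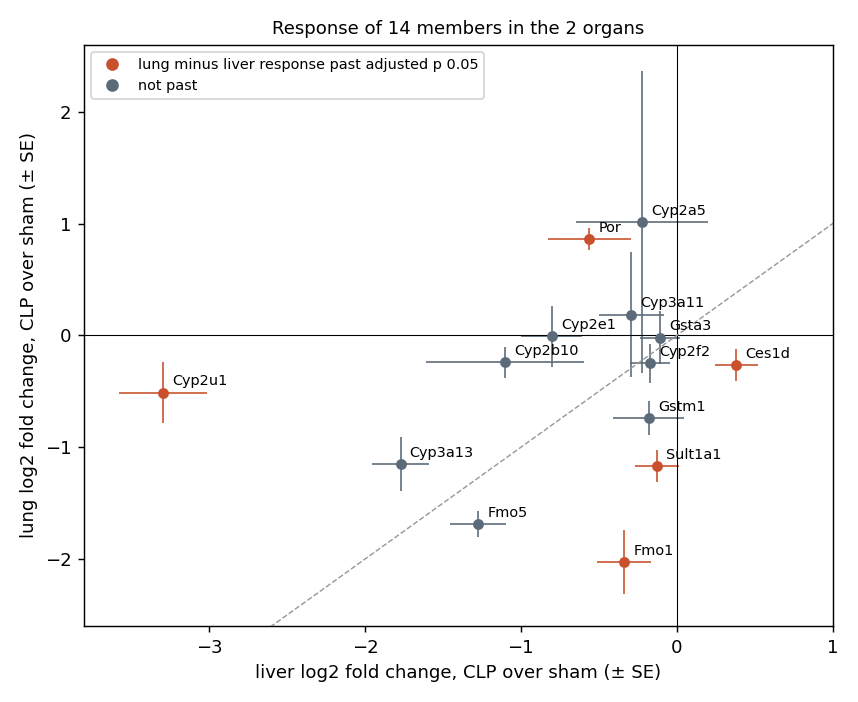
Log2 CLP over sham of the 14 members tested in both organs, liver on the x axis and lung on the y axis, with standard errors as bars. Por lies above 0 in lung and below 0 in liver, Fmo1 and Sult1a1 lie well below 0 in lung and closer to 0 in liver, and Fmo5 and Cyp3a13 lie below 0 in both.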

How the data were processed

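The deposited values are raw counts of reads per Ensembl gene in 12 libraries, 3 each of sham and CLP liver and lung. The submitters' processing notes name FastQC, STAR 2.7.10a, featureCounts, DESeq2 and mm39 without saying what each did. Not given in the sources used here: the gene annotation, strand handling, multi-mapping reads and the mouse behind each library.

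Counts were analysed with edgeR 4.0.16 in R 4.3.3: filterByExpr with a minimum count of 10, TMM factors, and a robust quasi-likelihood test within each organ on 6 libraries, or on 12 for the lung response minus the liver response, with Benjamini-Hochberg adjustment over all genes tested. The design took no covariate. Totals of 10559895 to 15854117 counts set the depth, and the pipeline was tested on simulated counts. Replicates of a group differed by more than sampling noise (chi-square over its degrees of freedom, 5.28 to 37.6). Of the 55414 identifiers, 52081 have a symbol in the name table used and all 34 members matched. Length scaling, exon overlaps and shared words of 75 bases came from GRCm38 with GENCODE M21, and promoter sequences from RefSeq on GRCm38.p6. Members with over 10% of such words in another gene were 11 of 34, so their counts may be split. One name of the wider P450 list, Cyp2d13, was not matched.

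The members and lists were chosen with earlier results of these data known. Named with their values in every library were members past the threshold in an organ, the 5 with the highest sham liver level, and those whose sham lung CPM was at least 10% of that in liver. The 4 lowest p-values of the organ difference and, in each wider list, the lowest 2 p-values per direction in liver were named as well. Alternatives tried were library totals, upper-quartile scaling, DESeq2 1.42.0, limma-voom (limma 3.58.1), no filter, the replicate number as a block, 1 fit of 12 libraries, leaving out each library, and subtraction of a liver share from lung counts. Standard errors and SDs cover the spread between libraries, and the CPM worth of 3 counts covers counting error only.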

Additional observations from a re-analysis of the deposited data

Results flagged for a closer look

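For 5 members the response to CLP differed between the organs by the test of the difference itself, in 1 edgeR model over 12 libraries. Cyp2u1 had a lung response minus liver response of 2.76 on the log2 scale, with -3.30 in liver and -0.51 in lung, where it had 65 counts in sham and 42 in CLP libraries. Por was at 1.39, with -0.56 in liver, which did not pass, and 0.86 in lung. Fmo1 was at -1.72 and Sult1a1 at -1.07, each with a fall in lung and a liver difference that did not pass, of -0.34 and -0.13. Ces1d was at -0.67, with 0.38 in liver and -0.26 in lung, neither past the threshold, and an edgeR adjusted p of 0.0445. The Ces1d difference lost its call with library totals alone (-0.56) and when any library but liver sham replicate 2 or lung CLP replicate 3 was left out (-0.73 to -0.53 over the fits that lost it), whereas the other 4 kept theirs in every alternative run.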

How the results depend on the processing

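The count of liver members lower, 5, was 15 with library totals alone and 8 with upper-quartile scaling. The phase 1 and phase 2 medians, -0.24 and -0.15, were -0.44 and -0.34 with library totals. The count of liver members higher, 0, was 2 with DESeq2 and 2 with limma-voom (Ces1d and Cyp2c70), 1 without a filter on low counts (Ces1d) and 1 in the fit of all 12 libraries (Cyp2c70). With a library left out, liver members lower ranged from 4 to 6 and higher from 0 to 1 (Cyp2c70 without CLP replicate 2 and Ces1d without sham replicate 2), lung members lower from 5 to 6 and higher from 1 to 1, and members whose organ responses differed from 4 to 5. Phase 1 medians then ranged from -0.29 to -0.21 and phase 2 medians from -0.21 to -0.10. Cyp2a5 in lung reversed from 1.02 to -1.80 without lung CLP replicate 2, and over all libraries left out in turn it ranged from -1.80 to 1.55. Of 713 alternative values for single members, 666 stayed on their side of the threshold, 50 of them with a changed sign while neither value passed, 15 lost and 31 gained a call, and 1 reversed. Whether the replicate numbers pair the samples was not settled by correlating each library's deviations from its group mean. Same-numbered CLP and sham libraries correlated at 0.0591, 0.161 and 0.211 in liver, where each library correlated best with its own number. In lung they correlated at 0.0236, 0.115 and 0.0212, and not every library correlated best with its own number. Between liver and lung, same-numbered CLP libraries correlated at 0.209, 0.0997 and 0.303, each the best match, and sham libraries at -0.03, 0.0495 and 0.119, so shared mice are neither shown nor modelled in the organ difference, which called 5 members with the replicate block too. With the replicate block, 1 liver member was higher (Ces1d) and Por (-0.62) and Fmo1 (-0.34) were also lower, and lung counts stayed at 5 lower and 1 higher. Where a fit left 2 libraries in a group, the spread was pooled over groups. The cause of these shifts was not tested. With 3 libraries a group and counts near the floor, Cyp2b9 in liver and 20 members in lung could not be read at this depth.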
